A study of Homo sapiens with 4 samples.

Results

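The genes described here are 40 genes of autophagy and the lysosome: the core machinery that builds autophagosomes, the cargo receptors, the transcription factors that control both systems, and the membrane proteins, hydrolases and proton pump of the lysosome. They were given as a list of names, with no measured value in the rule. Of these 40 genes, 39 reached at least 1 CPM (counts scaled to an equal library total) in 1 or more libraries, among 15989 genes that did so in the whole dataset. The exception was ULK2, a close relative of the kinase ULK1, with 9, 8, 12 and 0 deposited counts at 0, 10, 30 and 360 min. ATG2A passed only through treated libraries, since its annotated transcripts had 0.33 CPM at 0 min.

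Cultured AC16 cells were sequenced after 10, 30 or 360 min with doxorubicin at 10 nM, and untreated cells stand as 0 min. AC16 is an established human line, labelled cardiomyocyte, that descends from ventricular cells of an adult heart fused to transformed fibroblasts. Doxorubicin is an anthracycline drug that damages DNA by trapping topoisomerase II. Each time is 1 library, so no difference has a replicate check, no p-value was computed, and a ratio compares 2 libraries rather than 2 conditions. Treated cells also lost their serum, because the drug was given in newly added medium without it, and nothing states how the untreated cells were handled. Effects of doxorubicin, of new medium and of serum withdrawal, which is a known trigger of autophagy, therefore cannot be told apart.

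Autophagy begins when the ULK1 kinase complex and a lipid kinase complex around BECN1 mark a membrane, which then grows into a double-walled autophagosome. A ubiquitin-like conjugation system attaches proteins of the ATG8 family (LC3 and GABARAP) to that membrane, and cargo receptors such as SQSTM1 tether what is to be degraded to them. The autophagosome then fuses with a lysosome, where a proton pump keeps the lumen acid for the hydrolases. TFEB, TFE3 and MITF switch on many of these genes, and in heart muscle cells autophagy is known for its part in clearing damaged mitochondria.

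The 4 libraries held 55156612 to 56875881 deposited counts, worth about 13789153 to 14218970 read pairs. More loci had counts at 10 min (29129) than in the other libraries (27314 to 27461). Genes also differed from 0 min more often at 10 min than later, as the background shares below give. Of the cardiomyocyte markers, 8 of 18 reached 1 CPM, with a summed level of 119 to 217 CPM, of which NPPB held 37.1 to 122 CPM. Most contractile genes on the list were under 1 CPM in every library. ACTC1 was at 0 counts throughout, and TNNT2, TNNI3, TNNC1, MYH6, MYH7 and ACTN2 had at most 0.63 CPM. MYL7 had 1.02 to 2.01 CPM, while MYL2 had 27.7 to 37.9 CPM and TTN 11.8 to 20.3 CPM. Fibroblast and matrix markers summed to 11226 to 17757 CPM, highest at 10 min, with 10 of 16 reaching 1 CPM. COL1A1 (4694 to 6068 CPM), COL5A1 (2092 to 3742 CPM) and VIM (2189 to 3748 CPM) were the largest. DCN and LUM were at 0 counts throughout, and COL3A1, THY1, TCF21 and POSTN stayed under 1 CPM. Immune markers summed to 35.7 to 68.6 CPM, also highest at 10 min, where CD68, whose product sits in the lysosomal membrane, held 56.2 CPM. Endothelial markers summed to 247 to 337 CPM (4 of 9 genes reached 1 CPM), mostly ENG with 226 to 294 CPM. PECAM1, CDH5, KDR, TEK and CLDN5 had at most 0.53 CPM. Epithelial markers summed to 471 to 522 CPM (3 of 6 genes), mostly KRT8 with 293 to 326 CPM and KRT18 with 160 to 190 CPM. EPCAM, CDH1 and KRT19 stayed under 1 CPM. The part of these shifts in the results below was not tested, and in bulk RNA fewer cells of a type and less RNA per cell cannot be told apart.

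Levels between genes are compared per transcript length, as TPM over annotated transcripts. The most abundant of the 39 RNAs were those of 2 hydrolases, a cargo receptor and 2 lysosomal membrane proteins. CTSB, the cysteine protease cathepsin B, led with 1288, 2287, 1074 and 1077 TPM at 0, 10, 30 and 360 min. CTSD, the aspartic protease cathepsin D, followed with a mean of 653 TPM over the 4 libraries. SQSTM1 (mean 475 TPM), LAMP2 (388 TPM) and LAMP1 (314 TPM) came next. SQSTM1 was below LAMP2 at 0 and 10 min and above it at 30 and 360 min. At the low end stood ATG2A (mean 6.68 TPM), ULK1 (8.19 TPM), TFEB (8.96 TPM), UVRAG (10.8 TPM) and ATG14 (11.1 TPM). The span of ATG2A over the libraries covered all 4 others. Transcript models that no annotation names, described below, are outside these TPM. They held 76.3 to 88.3% of the counts at the ULK1 locus and 41.3 to 99.3% at the ATG2A locus. The low places of ULK1 and ATG2A therefore hold for annotated transcripts only. Among the 3 related transcription factors, TFE3 (mean 104 TPM) and MITF (66.1 TPM) were each far above TFEB in every library.

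**Figure D1:**
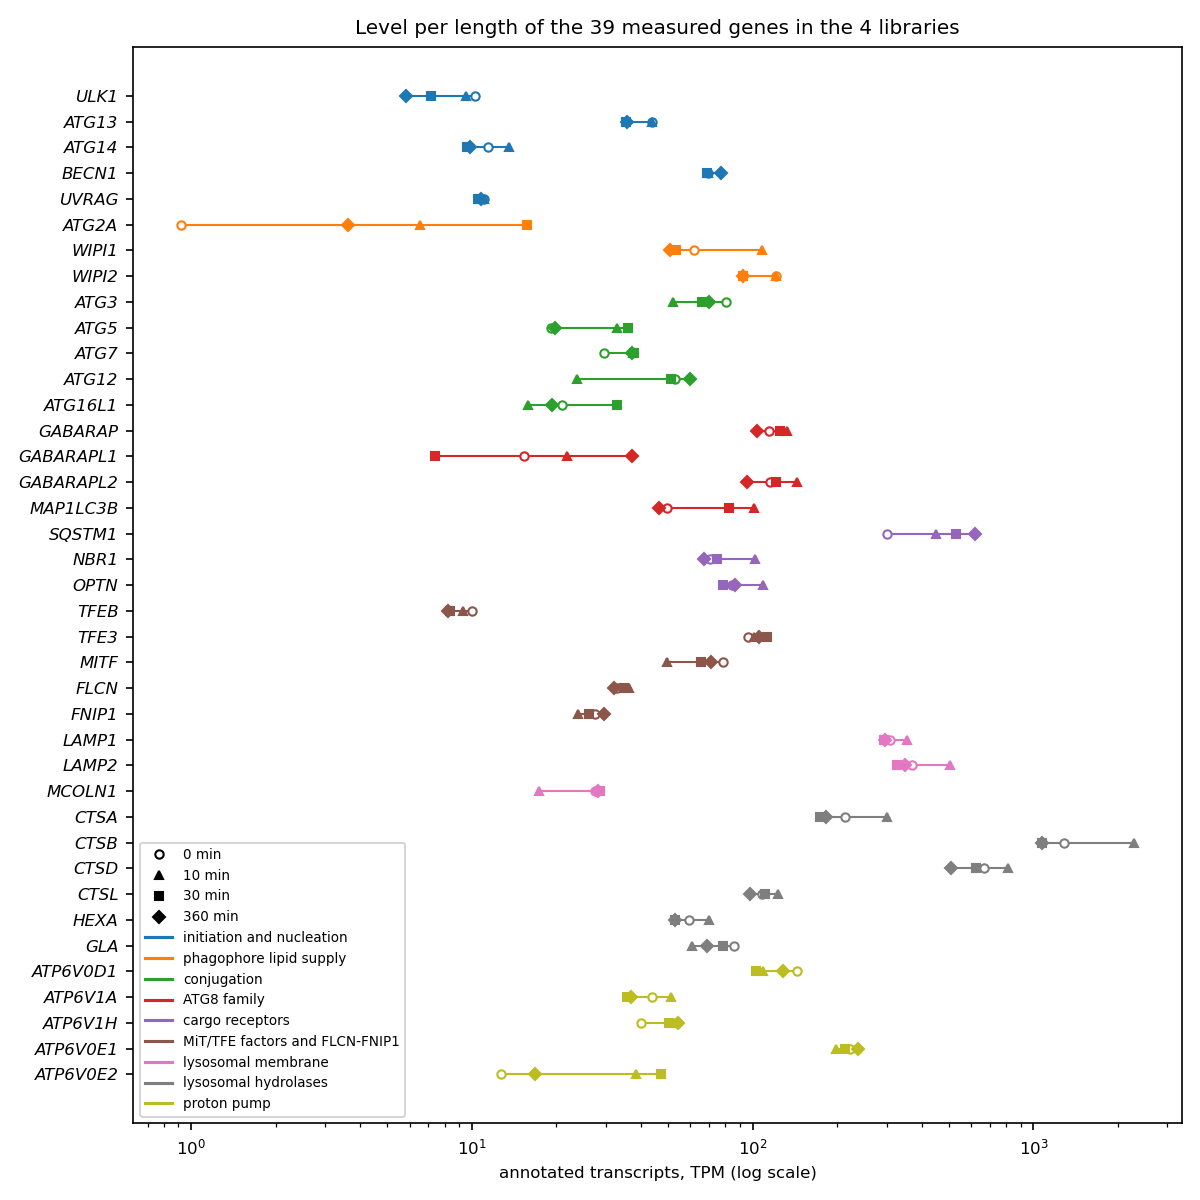
Level of each of the 39 measured genes in TPM over annotated transcripts (log axis). Each library has 1 symbol, joined by a line that spans the lowest and the highest. CTSB sits farthest right with a mean of 1432 TPM, and ATG2A has the widest span, from 0.92 to 15.7 TPM.

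Many lysosomal genes carry, near their start, the E-box that TFEB, TFE3 and MITF are known to bind. RefSeq promoter windows of 300 bases (250 before to 50 after the start, GRCh38.p14) were at hand for 33 of the 40 genes. The letters TCACGTG, on either strand, stood in windows of 9 of these 33 genes (27.3%), against 4.49% of all 27305 genes with a window. The shorter CACGTG, which is part of it, was held by the same 9 genes, against 8.77% of all genes. A match describes letters and says nothing of binding in these cells. The 30 bases around the match nearest upstream of a start are shown because genes of the lysosomal membrane, the hydrolases, the pump and the autophagy machinery share them. Capitals mark the match, read 5′ to 3′ on the gene's own strand as TCACGTG or its complement CACGTGA, and 8 capitals where both overlap.
LAMP1, chr13:113297200-113297229, plus strand: acccgcgggaTCACGTGAcgcccgggcgcg
MCOLN1, chr19:7522599-7522628, plus strand: ggctaccgggTCACGTGAccgaggcacaga
CTSA, chr20:45891299-45891328, plus strand: gcgccggagtTCACGTGActcgtacacatg
CTSD, chr11:1763956-1763985, minus strand: ccggccgcgccCACGTGAccggtccgggtg
ATP6V0D1, chr16:67481198-67481227, minus strand: ccccttatggTCACGTGAggcgcttgcgcg
ATP6V0E2, chr7:149872884-149872913, plus strand: tcccttctgcaTCACGTGgggactgcgcct
FNIP1, chr5:131797093-131797122, minus strand: ccgcgcgccgcCACGTGAtgcggcccccct
ATG3, chr3:112561963-112561992, minus strand: cctttctcacgTCACGTGccgggagagtct
ATG14, chr14:55411833-55411862, minus strand: aaacaaaatccCACGTGActggctctcctc

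LAMP1 held the most sites, 6 in its window, and MCOLN1, CTSA, FNIP1 and ATG3 held 2 each. The 250 bases upstream of LAMP1 show 5 of those 6 in capitals, and the same stretch of ATP6V0E2, the pump gene whose counts differed most, shows a single one.
LAMP1, chr13:113296989-113297238, plus strand: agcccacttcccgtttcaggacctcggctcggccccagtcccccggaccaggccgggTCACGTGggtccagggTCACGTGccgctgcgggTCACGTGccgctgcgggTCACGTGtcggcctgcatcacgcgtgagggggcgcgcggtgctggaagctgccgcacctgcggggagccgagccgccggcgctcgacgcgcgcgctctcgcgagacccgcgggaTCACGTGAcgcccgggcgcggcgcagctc
ATP6V0E2, chr7:149872714-149872963, plus strand: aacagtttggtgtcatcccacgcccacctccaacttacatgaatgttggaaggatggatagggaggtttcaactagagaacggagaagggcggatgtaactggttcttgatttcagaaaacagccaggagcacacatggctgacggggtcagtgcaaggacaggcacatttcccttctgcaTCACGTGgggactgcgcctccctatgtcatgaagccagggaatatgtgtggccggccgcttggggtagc
Carrying the match did not go with one direction of difference at 10 min. LAMP1, CTSA, CTSD and ATP6V0E2 were higher beyond counting error there, MCOLN1, ATG3, FNIP1 and ATP6V0D1 were lower, and ATG14 was within it.

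A gene was called where 2 libraries differed at least 2-fold, with at least 5 CPM in 1 of them and a 95% counting interval that excluded 1. At 10 min 3 of 39 genes were called higher, ATG2A, MAP1LC3B and ATP6V0E2, where 7.69% of all 11892 genes compared were. None was called lower, where 6.85% of all genes were. At 30 min 2 of 39 were called higher, ATG2A and ATP6V0E2, against a background of 3.55%, and 1 was called lower, GABARAPL1, against 3.25%. At 360 min GABARAPL1 was the 1 gene of 38 called higher, against a background of 3.26%, and none was called lower, against 3.34%. These shares lie near the background, so the counts are no result about autophagy and lysosome genes as a set. A wider rule asked only that the interval exclude 1, at any fold. It placed 21 genes higher and 10 lower at 10 min (background 34.2% and 38.9%), 10 higher and 11 lower at 30 min (25.7% and 26.2%), and 5 higher and 12 lower at 360 min (23.9% and 22.5%). By this rule the share of these genes that was higher stood above the background at 10 min and below it at 360 min. With a 1.5-fold threshold in place of 2-fold, 7 genes were higher and 3 lower at 10 min (background 16.5% and 17.0%), 5 higher and 1 lower at 30 min (8.26% and 7.66%), and 2 higher and 1 lower at 360 min (6.72% and 6.99%). The median log2 ratio of the genes was 0.19 at 10 min, -0.02 at 30 min and -0.06 at 360 min, beside -0.04, -0.01 and 0.01 over all genes compared. All 3 comparisons share the single 0 min library.

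**Figure D2:**
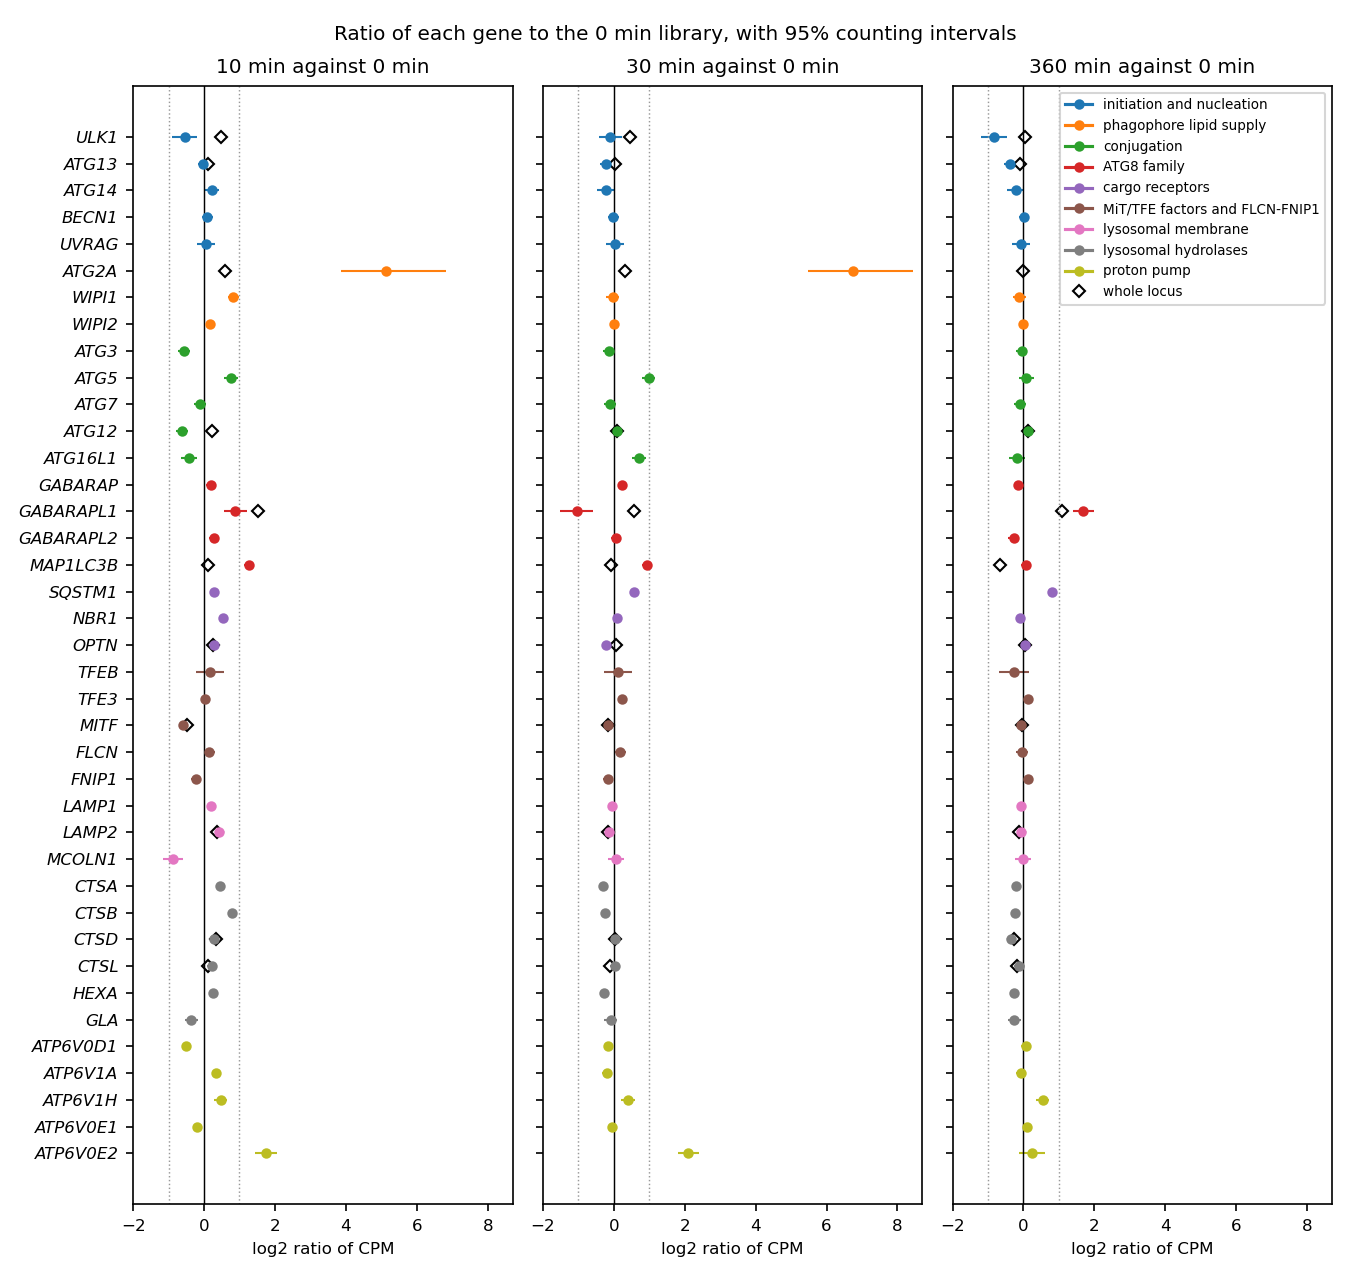
Log2 ratio of CPM to the 0 min library for each measured gene (dots, annotated transcripts, bars are 95% counting intervals) at 10, 30 and 360 min, with dotted lines at 2-fold. Open diamonds give the whole locus for the 11 genes with assembled models; for ATG2A and MAP1LC3B the diamond sits inside the dotted lines at every time while the dot at 10 min lies outside. ATG2A has no dot at 360 min because it was under 5 CPM in both libraries.

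Part of the counts went to transcript models that the authors' assembly made and that no annotation names. A value over annotated transcripts can therefore differ between libraries because reads were shared out differently, and the whole locus, annotated and assembled together, is given beside it where such models exist. This was the case for 11 of the 36 genes with a matched locus: ULK1, ATG13, ATG2A, ATG12, GABARAPL1, MAP1LC3B, OPTN, MITF, LAMP2, CTSD and CTSL. No locus could be matched to GABARAP, FNIP1, MCOLN1 and HEXA, so any assembled models of these genes could not be counted. By whole locus the same rule called GABARAPL1 and ATP6V0E2 higher at 10 min (background 5.94%), ATP6V0E2 at 30 min (1.62%) and GABARAPL1 at 360 min (0.947%). It called none lower, where the background was 4.63%, 1.35% and 0.986%. ATP6V0E2 has no assembled model, so its whole-locus calls repeat those of annotated transcripts. At any fold, 23 of 35 loci were higher beyond counting error and 6 lower at 10 min (background 34.6% and 38.1%), 9 higher and 7 lower at 30 min (23.8% and 24.5%), and 5 higher and 9 lower at 360 min (21.2% and 20.1%).

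**Figure D3:**
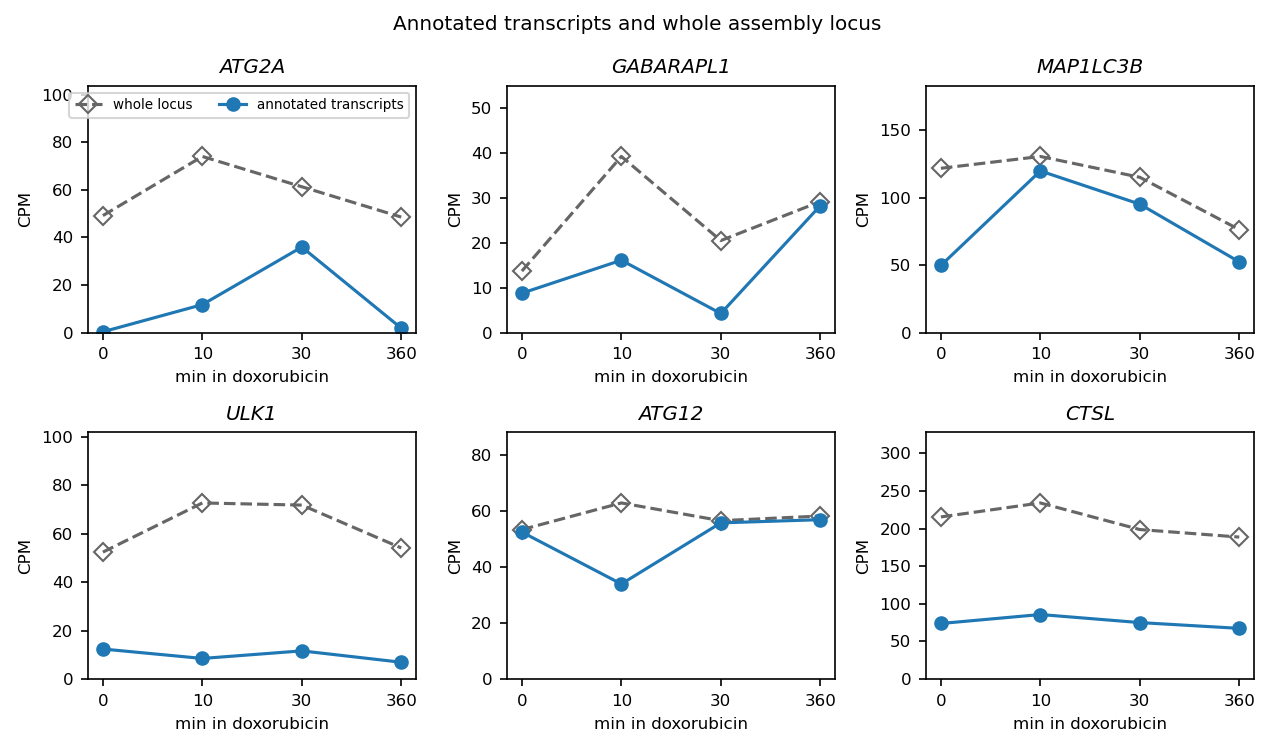
CPM of annotated transcripts (filled circles) and of the whole locus (open diamonds) at 0, 10, 30 and 360 min for 6 genes with assembled models. For ATG2A the annotated transcripts hold 0.33 CPM of a locus with 49.2 CPM at 0 min, and for GABARAPL1 they hold 28.3 of 29.2 CPM at 360 min.

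None of the 5 measured genes that start the autophagosome was called at any time. ATG13, a scaffold that holds the ULK1 kinase complex together and the most abundant of them, had 57.8, 57.1, 49.3 and 44.2 CPM in annotated transcripts at 0, 10, 30 and 360 min. Its whole locus had 75.4, 82.2, 76.8 and 69.9 CPM, highest at 10 min, and its ratio at 360 min was 0.77 in annotated transcripts (95% counting interval 0.69 to 0.85) and 0.93 by whole locus (0.85 to 1.01). ULK1 (ENSG00000177169, chr12:131894651-131923167), the kinase that relays nutrient and energy signals, had 12.4, 8.51, 11.6 and 6.94 CPM in annotated transcripts, which were lowest at 360 min (ratio 0.56, 0.43 to 0.72). Its locus, 76.3 to 88.3% of it in assembled models, had 52.4, 72.6, 71.7 and 54.1 CPM, with a ratio of 1.39 at 10 min (1.26 to 1.53) and 1.03 at 360 min (0.93 to 1.14). The direction for ULK1 at 10 min thus turned with the models counted. BECN1, ATG14 and UVRAG, which are subunits of lipid kinase complexes, were within counting error at all 3 times. With ATG7 and TFEB they made up the 5 of 38 genes for which this held (13.2%). The share was 11.6% of all 11285 genes compared at every time, so it is no result about these genes. BECN1 ranged over 48.2 to 52.3 CPM, ATG14 over 20.1 to 27.4 CPM and UVRAG over 17.5 to 19.0 CPM.

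ATG2A (ENSG00000110046, chr11:64894546-64917248, minus strand) makes a bridge that carries lipid into the growing membrane. Its annotated transcripts had 0.33, 11.8, 36.0 and 1.85 CPM at 0, 10, 30 and 360 min, so the 10 and 30 min libraries were high and the other 2 low. The ratio was 35.2 at 10 min (14.5 to 114) and 108 at 30 min (44.9 to 346). The whole locus had 49.2, 74.1, 61.3 and 48.6 CPM, which gives 1.51 at 10 min (1.37 to 1.66), 1.25 at 30 min (1.13 to 1.38) and 0.99 at 360 min (0.89 to 1.10). Assembled models held 99.3, 84.1, 41.3 and 96.2% of that locus. The annotated share of the locus was thus largest at 30 min, where the annotated CPM was. The transcript ATG2A-202 had 8, 286, 1801 and 0 counts.

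WIPI2 and WIPI1 bind the lipid mark that BECN1's complex makes. WIPI2 had 105, 118, 105 and 105 CPM at 0, 10, 30 and 360 min. WIPI1 had 39.3, 69.8, 38.5 and 36.2 CPM and stood out at 10 min, with a ratio of 1.77 (1.60 to 1.97), below the 2-fold that a call needed. Of its exon bases 24.3% also lie in ARSG on the other strand, and in the sources used here strand use in counting is not given.

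The conjugation genes differed among themselves at 10 and 30 min. All 5 lay within counting error at 360 min, where 23.9% of all genes were higher beyond it and 22.5% lower. ATG5, which joins ATG12 and ATG16L1 in the complex that places ATG8 proteins on the membrane, had 24.5, 41.7, 48.3 and 25.9 CPM. Its ratio was 1.70 at 10 min (1.49 to 1.95) and 1.97 at 30 min (1.73 to 2.25), just short of a call. ATG16L1, its partner, was low at 10 min and high at 30 min, with 25.4, 18.9, 41.4 and 22.2 CPM. ATG12, the most abundant by CPM, had 52.5, 33.9, 55.8 and 56.9 CPM in annotated transcripts, low at 10 min (ratio 0.65, 0.57 to 0.73). One assembled model at its locus held 28.9 CPM at 10 min, against 0.88 CPM at 0 min, and the whole locus had 53.3, 62.9, 56.5 and 58.2 CPM (ratio 1.18 at 10 min, 1.07 to 1.30). ATG3, the enzyme that hands ATG8 proteins to their lipid, had 33.9 CPM at 10 min against 49.9 CPM at 0 min, a ratio of 0.68 (0.60 to 0.76), with no assembled model. ATG7, the enzyme that activates both conjugation chains, ranged over 38.9 to 42.4 CPM, within counting error throughout. Over the 13 measured genes of the core machinery the median log2 ratio in annotated transcripts was 0.05, -0.02 and -0.08 at 10, 30 and 360 min. By whole locus it was 0.17, 0.02 and -0.04. At 10 min 4 were higher and 4 lower beyond counting error in annotated transcripts (background 34.2% and 38.9%). By whole locus 7 were higher and 2 lower (34.6% and 38.1%).

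GABARAPL1 (ENSG00000139112, chr12:10212458-10223130), an ATG8 protein, was the member whose call turned with time. Its annotated transcripts had 8.77, 16.1, 4.25 and 28.3 CPM at 0, 10, 30 and 360 min. The 360 min library was the highest and the 30 min library the lowest. It fell at 30 min to a ratio of 0.48 (0.35 to 0.67) and rose at 360 min to 3.22 (2.63 to 3.97), and at 10 min the ratio was 1.84 (1.47 to 2.31). By whole locus it had 13.7, 39.2, 20.5 and 29.2 CPM, above 0 min in all 3 treated libraries: the ratio was 2.86 at 10 min (2.43 to 3.39), 1.496 at 30 min (1.24 to 1.81) and 2.13 at 360 min (1.79 to 2.54). The fall at 30 min is thus one of annotated transcripts alone. Assembled models held 79.3% of the locus at 30 min and 3.11% at 360 min, where GABARAPL1-201 carried 932 counts against 121 at 0 min.

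MAP1LC3B (ENSG00000140941, chr16:87383995-87404779) encodes LC3B, the usual marker protein of autophagosomes. Annotated transcripts had 49.8, 119.8, 95.2 and 52.4 CPM, and the ratio passed the rule at 10 min with 2.41 (2.20 to 2.63). The whole locus had 121.7, 130.5, 115.1 and 76.3 CPM, with a ratio of 1.07 at 10 min (1.00 to 1.15) and 0.63 at 360 min (0.58 to 0.68). At 10 min 48.4% of the annotated counts lay in MAP1LC3B-206, annotated as a target of nonsense-mediated decay, with 0, 3222, 11 and 509 counts. The protein-coding MAP1LC3B-201 had 43.2, 60.5, 94.1 and 41.8 CPM at 0, 10, 30 and 360 min. It was thus less than 2-fold above 0 min at 10 min and more than 2-fold above it at 30 min. The near copy MAP1LC3B2, which could share reads with it, had 71, 64, 46 and 24 counts. GABARAP had 68.2, 77.6, 80.8 and 61.8 CPM and GABARAPL2 50.7, 61.6, 53.1 and 42.0 CPM. Both were higher beyond counting error at 10 min (ratios 1.14 and 1.22) and lower at 360 min (0.91 and 0.83). GABARAP is uncertain, since 30.5% of its exon bases also belong to AC120057.2 on the same strand.

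SQSTM1 (ENSG00000161011, chr5:179806398-179838078), also called p62, ferries ubiquitin-tagged cargo into autophagosomes and is itself degraded there. It had 326.6, 399.4, 489.5 and 565.4 CPM at 0, 10, 30 and 360 min, higher in each later library than in the one before. The ratio was 1.22 at 10 min (1.18 to 1.27), 1.499 at 30 min (1.44 to 1.56) and 1.73 at 360 min (1.67 to 1.80), under the 2-fold of a call at each time. Its locus holds no assembled model. SQSTM1 and the pump gene ATP6V1H were the 2 of 38 genes higher beyond counting error at all 3 times (5.26%), where 5.82% of all 11285 genes compared at every time were. The counts also lay in different transcripts at 0 min and later, and these start at different sites. SQSTM1-202 (start chr5:179820759) had 16752, 3646, 3624 and 5745 counts, and SQSTM1-201 (start chr5:179822485) had 369, 16914, 21878 and 23413. The second held 1.99% of the gene at 0 min and 75.1 to 80.9% in the treated libraries. On the other strand 20.7% of the gene's exon bases lie in MRNIP.

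NBR1, a receptor that works beside SQSTM1, had 131, 191, 139 and 124 CPM, with a ratio of 1.46 at 10 min (1.37 to 1.55). OPTN, a receptor known from the clearance of damaged mitochondria, had 102, 123, 88.0 and 104.7 CPM in annotated transcripts and 103, 124, 107 and 106 CPM by whole locus. The lower annotated value at 30 min lay beside an assembled model with 18.9 CPM in that library and 0.45 to 0.91 CPM in the others. All 3 receptors were higher beyond counting error at 10 min, where 34.2% of all genes were.

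None of the MiT/TFE factors was called. TFE3 was the most abundant, with 139, 141, 162 and 153 CPM at 0, 10, 30 and 360 min, and its largest ratio was 1.17 at 30 min (1.10 to 1.24). TFEB had 7.42, 8.27, 8.05 and 6.20 CPM and was within counting error at every time; at this level the intervals span 0.62 to 1.47, so a smaller difference could not be seen at this depth. MITF had 127, 84.0, 113 and 120.2 CPM in annotated transcripts, low at 10 min with a ratio of 0.66 (0.62 to 0.71), and 0.72 by whole locus (0.67 to 0.77). The leading MITF transcript was another one at 360 min. MITF-204, which starts at chr3:69739435, had 5664, 4214, 4979 and 288 counts, and MITF-203, which starts at chr3:69763811, had 64, 1, 69 and 5067. FLCN and FNIP1 form the complex that helps keep TFEB and TFE3 out of the nucleus when nutrients are plentiful. FLCN ranged over 41.6 to 48.4 CPM. FNIP1 had 56.8 CPM at 10 min against 66.9 CPM at 0 min (ratio 0.85, 0.77 to 0.94), and no locus of its own could be matched to it.

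**Figure D4:**
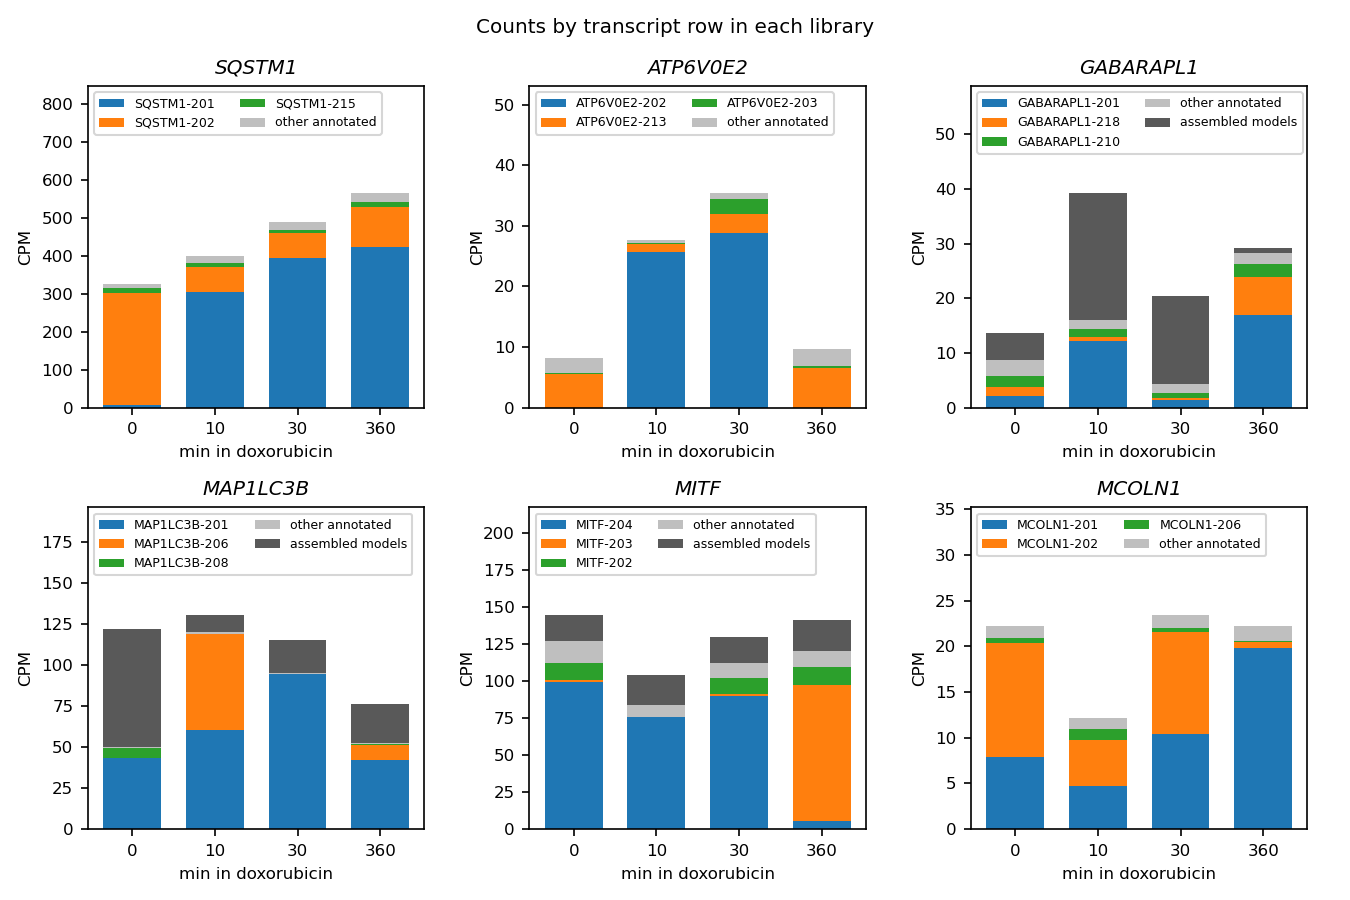
CPM of the 3 leading annotated transcripts, of all other annotated transcripts and of assembled models, stacked, for 6 genes at 0, 10, 30 and 360 min. SQSTM1-202 fills most of the first bar and SQSTM1-201 most of the other 3, while ATP6V0E2-202 is present in the 10 and 30 min bars and at 0 counts in the first and last.

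Of the lysosomal membrane proteins, LAMP2 was the most abundant, with 453, 608, 412 and 433 CPM at 0, 10, 30 and 360 min. LAMP2 and LAMP1 coat the inner face of the lysosomal membrane, and loss of LAMP2 causes an inherited heart muscle disease. LAMP2 had a ratio of 1.34 at 10 min (1.30 to 1.39) and 1.30 by whole locus (1.25 to 1.34). LAMP1, whose upstream sequence is printed above, had 366, 417, 355 and 351 CPM. MCOLN1, the calcium channel of the lysosome, was low in the 10 min library only, with 22.3, 12.1, 23.5 and 22.2 CPM and a ratio of 0.55 at 10 min (0.45 to 0.66). These values are of annotated transcripts alone, since no locus could be matched to MCOLN1. At 360 min its total was as at 0 min (ratio 1.00, 0.85 to 1.17) while its make-up differed. The protein-coding MCOLN1-201 had 446, 262, 578 and 1091 counts, and MCOLN1-202, annotated as retaining an intron, had 715, 282, 613 and 37.

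None of the 6 lysosomal hydrolases was called, but most differed from 0 min beyond counting error. At 10 min 5 of 6 were higher and 1 was lower, at 30 min none was higher and 3 were lower, and at 360 min all 6 were lower, with ratios of 0.79 to 0.91. The background was 34.2% higher and 38.9% lower at 10 min, 25.7% and 26.2% at 30 min, and 23.9% and 22.5% at 360 min. The median log2 ratio was 0.27, -0.16 and -0.25. CTSB (ENSG00000164733, chr8:11842524-11869448) had 1120.2, 1940.8, 947 and 944 CPM, so the 10 min library stood well above the other 3. Its ratio was 1.73 at 10 min (1.70 to 1.77), 0.85 at 30 min (0.83 to 0.87) and 0.84 at 360 min (0.82 to 0.86), with no assembled model. CTSD had 520.5, 630.3, 536 and 411 CPM, and is uncertain because 41.7% of its exon bases also lie in AC068580.4 on the same strand. CTSD-207 had 20128, 23220, 0 and 13825 counts at 0, 10, 30 and 360 min, and CTSD-201 had 1727, 2220, 28114 and 1856, so the leading transcript was another one in the 30 min library. CTSA, which stabilises 2 other lysosomal enzymes, had 176, 242, 143 and 152 CPM. CTSL, the cysteine protease cathepsin L, had 73.9, 85.8, 75.1 and 67.4 CPM in annotated transcripts and 216, 234, 199 and 189 CPM by whole locus. HEXA, a subunit of the enzyme that clears gangliosides, had 101, 121, 84.1 and 84.7 CPM. GLA, the enzyme missing in Fabry disease, was the 1 hydrolase lower at 10 min, with 30.6 CPM against 39.3 CPM at 0 min (ratio 0.78, 0.68 to 0.88).

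Of a wider list of lysosomal hydrolases and their activators, 37 of 38 reached 1 CPM. At 10 min 26 of the 36 compared were higher beyond counting error and 5 lower (background 34.2% and 38.9%), with a median log2 ratio of 0.42. At 360 min 5 of 34 were higher and 18 lower (background 23.9% and 22.5%), with a median of -0.15. By whole locus the counts were 22 higher and 2 lower of 30 at 10 min (background 34.6% and 38.1%), and 3 higher and 15 lower of 28 at 360 min (21.2% and 20.1%). The 10 min library also had the highest sums of fibroblast, matrix and endothelial markers (the last mostly ENG) and the most detected loci. Their part in this was not tested.

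**Figure D5:**
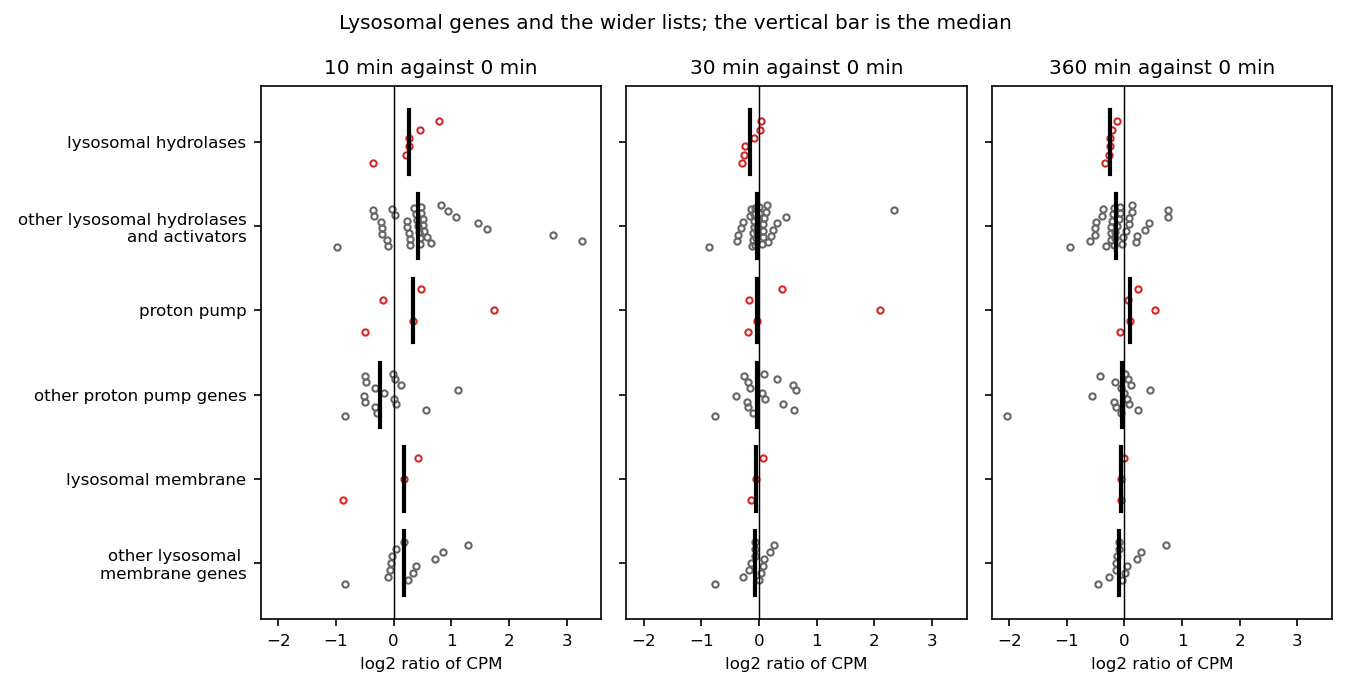
Log2 ratio of CPM to the 0 min library for the lysosomal genes described (red) and for the other genes of the same classes (grey), with the median of each list as a black bar. The hydrolases and the other hydrolases lie mostly right of 0 at 10 min (medians 0.27 and 0.42) and mostly left of it at 360 min (medians -0.25 and -0.15).

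ATP6V0E2 (ENSG00000171130, chr7:149872968-149880698), a small membrane subunit of the proton pump, was called at 10 and 30 min. Its locus holds no assembled model, so the whole-locus values are the annotated ones and no separate check. The gene had 8.25, 27.7, 35.4 and 9.70 CPM at 0, 10, 30 and 360 min, with the 10 and 30 min libraries high and the other 2 low. It rose 3.36-fold at 10 min (2.72 to 4.17) and 4.29-fold at 30 min (3.50 to 5.30), and the ratio at 360 min was 1.18 (0.91 to 1.52). Most of the gene's counts at 10 min (93.0%) and 30 min (81.4%) lay in ATP6V0E2-202 (start chr7:149874043), with 0, 1432, 1593 and 0 counts. It was at least 122-fold higher at 10 min and at least 137-fold higher at 30 min, against a floor of 12 counts (3 read pairs, or 0.211 CPM) in the 0 min library. ATP6V0E2-213, which starts upstream at chr7:149872968, had 319, 69, 171 and 359 counts, lower in the 10 and 30 min libraries than in the other 2. The sequence printed above lies just before the upstream start. The antisense gene ATP6V0E2-AS1, which shares 12.8% of the exon bases, had 285, 145, 193 and 262 counts, so reads of the 2 strands could be mixed if strand was not used.

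Its more abundant relative ATP6V0E1 had 136.0, 119, 132 and 145 CPM and was never called (ratio 0.88 at 10 min, 0.82 to 0.94). ATP6V1H, a regulatory subunit, had 29.8, 41.2, 39.3 and 43.2 CPM, higher in all 3 treated libraries with ratios of 1.39 (1.22 to 1.57), 1.32 (1.16 to 1.502) and 1.45 (1.28 to 1.65). ATP6V1A, the subunit that splits ATP, had 75.7, 95.5, 66.2 and 71.9 CPM. ATP6V0D1, which links the turning parts of the pump, was low at 10 min with 60.5 CPM against 85.5 CPM at 0 min (ratio 0.71, 0.65 to 0.77). The 5 subunits described thus did not go one way at 10 min: 3 were higher and 2 lower beyond counting error, where 34.2% and 38.9% of all genes were. Of 16 other pump genes compared at 10 min, 2 were higher and 8 lower by the same measure, with a median log2 ratio of -0.23. By whole locus 1 of 14 was higher and 7 lower (background 34.6% and 38.1%), with a median of -0.08.

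Beyond the 40 genes, 125 of 134 further autophagy and lysosome genes reached 1 CPM. At 10 min 9 of 117 compared were called higher and none lower, at 30 min 5 of 115 higher and 1 lower, and at 360 min 3 of 115 higher and 1 lower. Over all genes 7.69% were called higher and 6.85% lower at 10 min, 3.55% and 3.25% at 30 min, and 3.26% and 3.34% at 360 min, so the shares called higher lie near the background. BNIP3L, a receptor for the removal of mitochondria, had 64.0, 178.7, 173.6 and 162.8 CPM, and its whole-locus values were the same numbers. It rose 2.79-fold at 10 min (2.59 to 3.01), 2.71-fold at 30 min (2.51 to 2.93) and 2.54-fold at 360 min (2.35 to 2.75). SGSH, an enzyme that breaks down heparan sulfate, had 0.79, 7.61, 2.73 and 2.07 CPM and rose 9.62-fold at 10 min (5.19 to 19.7). The other 4 genes called at 10 min, CTSF, ATP6AP2, SLC17A5 and CTSO, had ratios of 2.12 to 2.75, and PRKAA2 had 2.01 at 30 min. Most of the remaining genes were called by annotated transcripts and not by whole locus. TAX1BP1, a cargo receptor, had ratios of 7.25, 10.9 and 9.48 at 10, 30 and 360 min, and 1.05, 1.14 and 0.96 by whole locus. ARSA, a sulfatase, had 3.08 at 10 min and 1.86 by whole locus. TP53INP2 had 3.77 at 30 min and 4.47 at 360 min, and 0.77 and 0.80 by whole locus. RPTOR, the scaffold of mTORC1, had 0.07 at 30 min and 0.88 by whole locus, and ATP6AP1, an accessory pump subunit, had 0.24 at 360 min and 0.62 by whole locus.

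The leading annotated transcript was not the same in all 4 libraries for 9 of the 39 measured genes (23.1%), against 32.6% of all 15989 genes with at least 1 CPM. These exchanges of counts between transcripts, among them those in SQSTM1, ATP6V0E2, MITF, MCOLN1 and CTSD, were found in a smaller share of these genes than of the dataset as a whole.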

How the data were processed

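Poly(A) RNA of AC16 cells was sequenced in 1 library for each of 0, 10, 30 and 360 min, and HISAT2, DESeq2 and GRCh38 are named, without versions, in the submitters' processing notes. The authors deposited estimated counts, whole numbers per locus and per transcript, not scaled. Counting tool, annotation release and strand use: not given in the sources used here. Rows of annotated transcripts were summed per gene with GENCODE 29 and scaled to CPM by library total. TPM was computed from the same rows and serves for levels between genes. Assembled models held 11.1% of counts. A whole locus was matched where its counts, less assembled models, equalled those of 1 gene or of up to 6 neighbouring genes together. In such a run it was given to the gene that held at least 95% of the counts. A whole locus can therefore include a few counts of neighbouring genes.

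Low values piled up at multiples of 4 (32.4% of 9187, where even spacing gives 25%), so 4 deposited counts were taken as 1 read pair, and undivided counts were run as an alternative. Ratios carry 95% exact (Clopper-Pearson, conditional binomial) intervals from SciPy 1.17.1, which cover counting error only, since no molecular identifiers are recorded. With 1 library a time, no test with replicates was run. Genes given in full are those called at any time and the one with the highest mean CPM in each functional group; of the wider lists, up to 5 called genes a comparison with the interval farthest from 1; other members are given by values or ranges. WIPI1, ATG5, ATG16L1, ATG3, NBR1, OPTN, MITF, MCOLN1, ULK1 and ATP6V1H were described at more length after their values were seen. The members and lists were chosen with earlier results of these data known. The alternatives were TMM (edgeR 4.0.16 in R 4.3.3), median-of-ratios scaling, other CPM and fold thresholds, whole loci, protein-coding transcripts, length division and another baseline. Promoter windows are from RefSeq (GRCh38.p14); the protein sequences were not used here. Tables were made with pandas 2.3.3 and numpy 2.4.6 in Python 3.11.15, and figures with matplotlib 3.10.9.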

Additional observations from a re-analysis of the deposited data

Results flagged for a closer look

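GABARAPL1 was called lower at 30 min (log2 ratio -1.05) and higher at 360 min (1.69) in annotated transcripts, opposite directions under the same contrast with 0 min; the difference between the 2 times was not tested, since each is 1 library. By whole locus both ratios were above 1.

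Assembled transcript models lie outside the annotated sums. At 5 points they held at least 5 CPM and at least 2-fold more than at 0 min, beyond counting error. ATG12 models held 28.9 CPM at 10 min, against 0.88 CPM at 0 min. GABARAPL1 models held 23.1 CPM at 10 min and 16.2 CPM at 30 min, against 4.92 CPM at 0 min. OPTN models held 18.9 CPM at 30 min, against 0.58 CPM at 0 min, and CTSD models held 9.87 CPM at 10 min, against 2.69 CPM at 0 min. Annotated transcripts of ATG12 and OPTN were lower in the library where their models were higher.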

How the results depend on the processing

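The 6 counts of called genes were 3 higher and 0 lower at 10 min, 2 and 1 at 30 min, and 1 and 0 at 360 min, and TMM scaling, median-of-ratios scaling and undivided counts changed none of them. A 1.5-fold threshold gave 7 higher and 3 lower at 10 min, 5 higher at 30 min, and 2 higher and 1 lower at 360 min. By whole locus the counts were 2 higher and 0 lower at 10 min, 1 and 0 at 30 min, and 1 and 0 at 360 min. Protein-coding transcripts alone gave 1 lower at 10 min (ULK1), 4 higher at 30 min and 2 higher at 360 min. Division by transcript length gave 1 lower at 10 min (ATG12) and 2 higher at 360 min. Without a CPM minimum 2 genes were higher at 360 min, and with a minimum of 10 CPM 0 were lower at 30 min. With the median of the other 3 libraries as baseline 2 genes were lower at 360 min. Reversals that involved a call were GABARAPL1 at 30 min by whole locus (log2 ratio 0.58), and ATG2A (-2.67) and ATP6V0E2 (-1.51) at 360 min with the median of the other libraries as baseline. Of 360 log2 ratios of the named genes under alternatives, 340 stayed called or stayed uncalled. Another 12 gained a call, 5 lost one and 3 reversed. A reversal was counted only where the ratio was called in the main setting or under the alternative. Uncalled ratios that changed direction are among the 340, as ATG12 did at 10 min by whole locus. Of 270 group medians, 14 left the span of their genes' intervals. The cause was not tested where no construction shows it. ATG2A and MAP1LC3B lost their calls at 10 min by whole locus, with log2 ratios of 0.59 and 0.10. No paired analysis was possible because each time is 1 library. Intervals widen where either library holds few counts, as for ATG2A (14.5 to 114 at 10 min), and no interval covers variation between cultures.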
